A study of Mus musculus with 6 samples.

Results

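The 9 genes described here are markers and regulators of the formative and primed epiblast: the ligand gene Fgf5, the transcription factor genes Otx2, Pou3f1, Sox3, Sox4, Foxd3, Zic2 and Utf1, and the adhesion gene Cdh2. They were taken by symbol from a table of 24043 gene rows. All 9 were found there once, and 6 of them averaged at least 1 FPKM across the 6 libraries. The libraries were RNA-seq of mouse embryonic stem (ES) cells, 3 of the genotype labelled Q-KO, which lacks every G1 cyclin, and 3 of wild type. Per the labels, the medium of both groups held LIF (leukaemia inhibitory factor), PD184352, which inhibits MEK, and CHIR99021, which inhibits GSK3. The labels do not say whether the Q-KO cells were 1 clone, whether the libraries of a group came from separate cultures, or how the cyclins were removed. All p-values therefore measure only the spread between these libraries, which may be technical among the Q-KO libraries. The wild-type libraries also differed in Y-linked transcripts, as given below.

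ES cells resemble the naive epiblast of the embryo before implantation. After implantation the epiblast passes through a formative state, in which it becomes competent for germ layer and germ cell formation, and then a primed state. FGF and ERK signalling drives this transition, and a MEK and a GSK3 inhibitor with LIF hold ES cells in the naive state, where most priming genes are low. Otx2 and Pou3f1 (Oct6) are among the earliest transcription factors to rise as ES cells leave that state, Fgf5 is the classical marker of the egg-cylinder epiblast, and Sox3, Zic2 and Foxd3 act at the same step. Utf1 is a chromatin factor controlled by Oct4 and Sox2, and N-cadherin, the product of Cdh2, replaces E-cadherin when epiblast cells become mesenchymal or neural.

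The start regions of 4 of these genes are shown because the results turn on them: Sox4 was higher in every Q-KO library than in any wild-type library, Otx2 and Utf1 each had 1 wild-type library far from the others, and Fgf5 was nearly silent. Each window holds 250 bases before and 50 bases from a start site on, from RefSeq (GRCm38.p6, which is not the build named for the deposited table), and capitals mark the motifs named below. The Sox4 window is chr13:28953650-28953949, minus strand. Otx2 has 4 windows, of which the most upstream (chr14:48667595-48667894) and the next but one (chr14:48665060-48665359), both minus strand, are given. Fgf5 is at chr5:98253934-98254233 and Utf1 at chr7:139943606-139943905, both plus strand.
Sox4: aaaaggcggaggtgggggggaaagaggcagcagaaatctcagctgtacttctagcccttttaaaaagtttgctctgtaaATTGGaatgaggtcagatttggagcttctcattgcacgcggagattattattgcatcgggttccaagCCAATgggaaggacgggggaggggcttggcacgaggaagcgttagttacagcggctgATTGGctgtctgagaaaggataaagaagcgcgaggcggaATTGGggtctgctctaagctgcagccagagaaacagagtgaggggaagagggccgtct
Otx2, most upstream start: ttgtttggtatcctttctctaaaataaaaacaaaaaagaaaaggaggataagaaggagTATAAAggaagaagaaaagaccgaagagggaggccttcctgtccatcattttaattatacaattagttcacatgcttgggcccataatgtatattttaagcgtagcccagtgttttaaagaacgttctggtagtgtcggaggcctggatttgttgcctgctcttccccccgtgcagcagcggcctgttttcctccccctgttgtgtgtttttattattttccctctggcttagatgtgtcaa
Otx2, downstream start: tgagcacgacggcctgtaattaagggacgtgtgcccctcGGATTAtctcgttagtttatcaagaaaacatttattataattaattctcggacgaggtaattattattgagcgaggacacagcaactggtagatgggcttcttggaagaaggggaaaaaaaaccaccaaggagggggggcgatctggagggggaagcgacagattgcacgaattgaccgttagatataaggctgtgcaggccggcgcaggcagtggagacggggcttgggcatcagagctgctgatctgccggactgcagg
Fgf5: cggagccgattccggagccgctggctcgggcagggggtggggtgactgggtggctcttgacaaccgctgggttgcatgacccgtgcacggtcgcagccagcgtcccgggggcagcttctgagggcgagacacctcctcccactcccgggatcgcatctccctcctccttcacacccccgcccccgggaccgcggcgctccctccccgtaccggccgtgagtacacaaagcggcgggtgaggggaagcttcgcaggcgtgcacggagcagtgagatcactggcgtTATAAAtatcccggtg
Utf1: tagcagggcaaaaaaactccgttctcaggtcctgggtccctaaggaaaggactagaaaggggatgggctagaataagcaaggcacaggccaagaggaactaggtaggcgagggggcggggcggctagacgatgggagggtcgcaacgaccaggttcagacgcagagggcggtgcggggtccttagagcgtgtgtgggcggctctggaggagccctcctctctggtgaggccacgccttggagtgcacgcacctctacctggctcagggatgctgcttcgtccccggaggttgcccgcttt

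Windows were found for 5 of the 9 genes (8 windows in all), and 5 motifs were searched on both strands in these and in all 32851 windows. The CCAAT box (CCAAT), which NF-Y binds, occurred 4 times in the Sox4 window and 1 time in an Otx2 window not shown, and was present in 37.4% of all windows. At least 4 of them were held by 1.06% of all windows. That cut-off was the count of the Sox4 window itself, the most among the 8 windows, so a small share follows in part from the choice. Whether these matches act as CCAAT boxes was not tested. The letters of the TATA box (TATAAA) began at base 35 from the start in the Fgf5 window and at base -192 in the most upstream Otx2 window. They were present in 13.6% of all windows, and whether either match acts as a TATA box was not tested. The site of the OTX family (GGATTA) lay in the downstream Otx2 window shown and in 7.06% of all windows. The octamer of POU factors (ATGCAAAT) and E2F sites (TTTCCCGC, TTTGGCGC, TTTCGCGC or TTTGCCGC) were in none of the 8 windows, and in 1.74% and 2.26% of all windows. The GC content was 68.3% for Fgf5, 65.7% for Foxd3, 62.0% for Utf1, 52.0% for Sox4 and 41.7% to 53.7% for the Otx2 windows, beside a median of 52.7% over all windows.

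The values are FPKM, fragments scaled by the length of the gene and by the size of the library, so that levels of different genes can be compared per length. Their sum per library was 525134 to 641715, and the number of fragments behind each value is not given. From ratios of the lowest values, relative depth differed by at most 1.22 times between wild-type replicate 1 and any other library. The wild-type libraries were not alike: all 5 Y-linked genes examined had transcripts in the Q-KO libraries and in wild-type replicate 3, and all 5 were listed at 0 in wild-type replicates 1 and 2. The genotype was not shown by every cyclin gene. Ccnd1, Ccnd3 and Ccne2 were lower in all Q-KO libraries, while Ccne1 was at 65.3 to 87.3 FPKM in Q-KO and 37.5 to 55.9 FPKM in wild-type libraries. Ccnd2 was low throughout, at 0.299 to 0.548 FPKM in Q-KO and 0.0640 to 0.310 FPKM in wild-type libraries, with overlap. Directions below are therefore those of the libraries labelled Q-KO. The 8 ES cell markers fixed for this report, of which Utf1 is also a priming gene, were expressed in every library. Pou5f1 was at 614 to 797 FPKM in Q-KO and 589 to 718 FPKM in wild-type libraries. In the test used below 0 of the 8 passed and 0 had an unadjusted p under 0.05, against 4.06% and 21.5% of all genes tested. Zfp42 and Utf1 varied 4.74 and 3.73 times among the wild-type libraries, so a lack of calls does not show that they were stable.

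No priming gene passed the test between Q-KO and wild-type libraries. limma on log2(FPKM + 1), adjusted by Benjamini-Hochberg over the 11573 genes that averaged at least 1 FPKM, called 0 of the 6 testable genes at an adjusted p under 0.05, where it called 4.06% of all genes tested. At an unadjusted p under 0.05 there were 2, Cdh2 and Sox4, both higher in Q-KO, against 21.5% of all genes. These 2 were also the only ones of the 6 whose Q-KO and wild-type values did not overlap, which held for 27.7% of all genes. Both had a wild-type mean under 1 FPKM and passed the filter through their Q-KO values, so that these counts say nothing of the group as a whole. The other 3 genes, Fgf5, Pou3f1 and Sox3, were below the filter and are given as values. In bulk RNA, fewer cells that express a gene and less RNA per cell cannot be told apart.

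**Figure D1:**
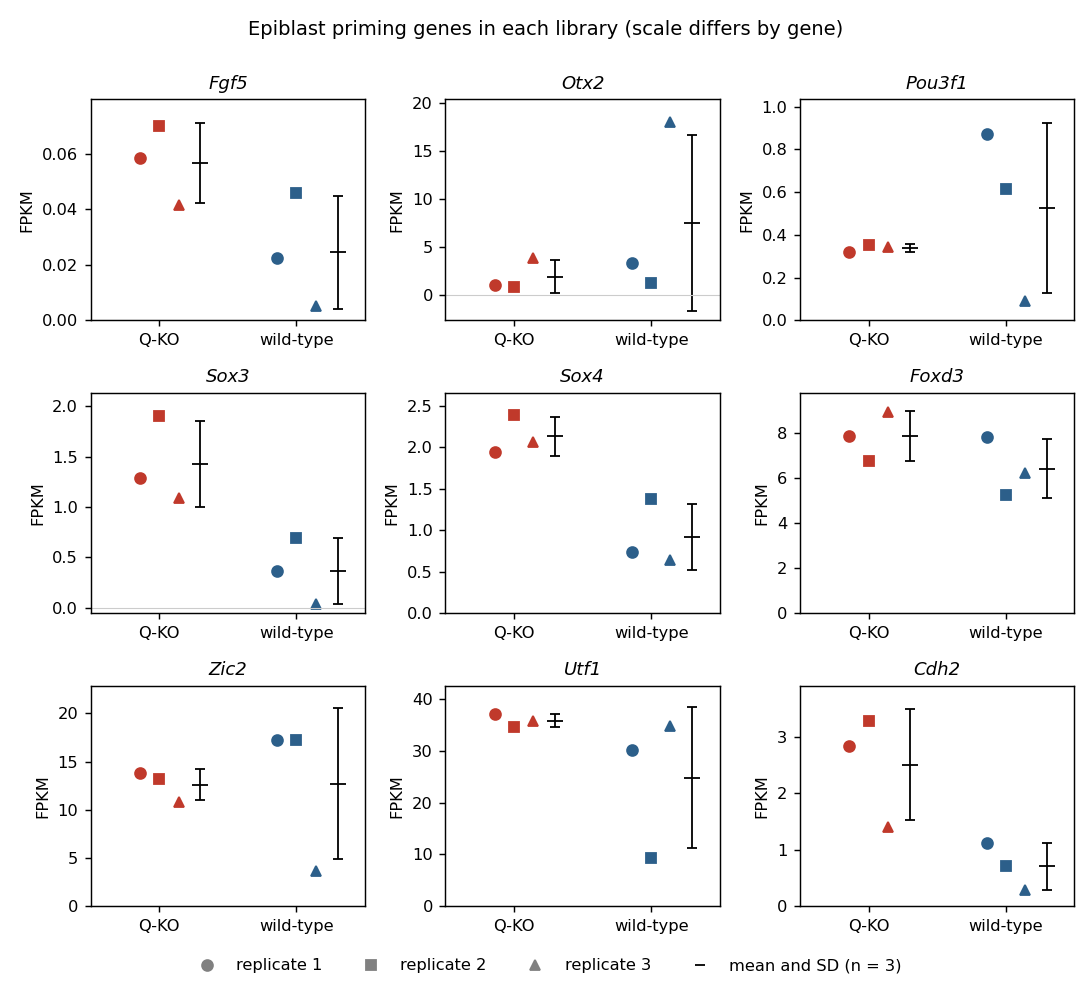
FPKM of each of the 9 genes in the 3 Q-KO libraries (red, left) and the 3 wild-type libraries (blue, right), with a marker shape per replicate and the mean ± SD in black (n = 3 each). The Sox3, Sox4 and Cdh2 values of the groups do not overlap, and wild-type replicate 3 lies far above all other libraries for Otx2 (18.0 FPKM) and below all others for Zic2 (3.66 FPKM).

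In order of level, the Q-KO libraries had Utf1 first (mean 35.8 FPKM), followed by Zic2 (12.6), Foxd3 (7.85), Cdh2 (2.51), Sox4 (2.13), Otx2 (1.87), Sox3 (1.43), Pou3f1 (0.339) and Fgf5 (0.0566). Neighbours from Cdh2 to Sox3 had overlapping ranges, and the others had separate ones. In the wild-type libraries the order was Utf1 (24.8 FPKM), Zic2 (12.7), Otx2 (7.49), Foxd3 (6.41), Sox4 (0.918), Cdh2 (0.710), Pou3f1 (0.526), Sox3 (0.365) and Fgf5 (0.0245). There only Foxd3 and Sox4 were neighbours with separate ranges. Even Utf1 was far below Pou5f1 in every library.

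The ligand Fgf5 was at 0.0584, 0.0700 and 0.0415 FPKM in Q-KO replicates 1, 2 and 3, against 0.0223, 0.0458 and 0.00524 FPKM in wild-type replicates 1, 2 and 3. Wild-type replicate 2 lay above Q-KO replicate 3, so the groups overlapped, and no library reached 0.1 FPKM. In a fit with no filter on low values, the log2 change was 0.04 (SE 0.02, limma adjusted p = 0.261). Fgf4, the ligand that naive ES cells make themselves, was at 86.3 to 118 FPKM in Q-KO and 85.5 to 94.3 FPKM in wild-type libraries, and did not pass (adjusted p = 0.555). Fgf6 was listed at 0 in every library.

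Otx2, the homeodomain factor that starts the move to the formative state, had the widest spread of the 9 genes on the log2(FPKM + 1) scale. Its values were 1.01, 0.779 and 3.82 FPKM in Q-KO replicates 1, 2 and 3, against 3.24, 1.19 and 18.0 FPKM in wild-type replicates 1, 2 and 3. Wild-type replicate 3 was 8.13 times the mean of the other 2 wild-type libraries, and Q-KO replicate 3 lay above both of those. The log2 change of -1.12 (SE 0.74, 95% interval -2.82 to 0.58) did not pass (adjusted p = 0.425). Without wild-type replicate 3 it was -0.24 (adjusted p = 0.812). A Y-linked term was also added to the model, which then sets the Q-KO libraries against wild-type replicate 3 alone, and the log2 change was -2.88 (adjusted p = 0.0213). That model called 7.72% of all genes and assumes that the lone wild-type library varies like the others.

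The Otx2 value may hold reads of Otx2os1, a transcript of the other strand that overlaps its exons, because no strand setting was stated. The same limit holds for Sox4, overlapped by Gm26735, and for Pou3f1, overlapped by Gm2164. On the same strand, Gm49154 overlaps exons of Otx2 and Gm23366 those of Foxd3, which a strand setting would not separate. Otx2os1 was at 0.0217, 0.0800 and 0.191 FPKM in Q-KO and 0.167, 0.138 and 0.365 FPKM in wild-type libraries, and was also highest in wild-type replicate 3. Of the close relatives of Otx2, Otx1 was at 0.903, 1.22 and 0.891 FPKM in Q-KO libraries, against 0.323, 0.314 and 0.176 FPKM in wild-type libraries. It was below the filter, and with no filter its log2 change was 0.66 (limma adjusted p = 0.0336). The fit with no filter called 519 of 19581 genes. Crx, the photoreceptor member, stayed at or under 0.132 FPKM in every library.

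Pou3f1, the POU factor Oct6, was at 0.320, 0.352 and 0.345 FPKM in Q-KO replicates 1, 2 and 3, against 0.872, 0.616 and 0.0902 FPKM in wild-type replicates 1, 2 and 3. The Q-KO libraries lay close together, between wild-type replicate 3 and the other wild-type libraries. With no filter the log2 change was -0.15 (SE 0.20, adjusted p = 0.724). Its paralogues Pou3f2, Pou3f3 and Pou3f4, known from the nervous system, reached at most 0.0691, 0.405 and 0.0265 FPKM in Q-KO libraries and 0.0844, 0.421 and 0.0915 FPKM in wild-type libraries.

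Sox3 and Sox4 were higher in each Q-KO library than in any wild-type library. Sox3, the X-linked SOXB1 factor that shares its targets with Sox2, was at 1.29, 1.90 and 1.09 FPKM in Q-KO replicates, against 0.365, 0.691 and 0.0371 FPKM in wild-type replicates 1, 2 and 3. The mean was 1.43 ± 0.425 FPKM in Q-KO and 0.365 ± 0.327 FPKM in wild-type libraries (SD, n = 3 each), which is 3.91 times. With no filter the log2 change of Sox3 was 0.84 (SE 0.22, adjusted p = 0.114), so it did not pass. Of the 8008 genes below the filter and above 0, 18.2% were likewise higher in each Q-KO library.

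Sox4, a SOXC factor of progenitor cells, was at 1.94, 2.39 and 2.07 FPKM in Q-KO replicates, against 0.741, 1.37 and 0.640 FPKM in wild-type replicates 1, 2 and 3. The lowest Q-KO value exceeded the highest wild-type value, that of replicate 2. The means were 2.13 ± 0.233 and 0.918 ± 0.397 FPKM (SD, n = 3 Q-KO and 3 wild-type libraries), a ratio of 2.32, and the log2 change of 0.73 (SE 0.20, 95% interval 0.26 to 1.19) missed the threshold (adjusted p = 0.0934). Without wild-type replicate 2, the wild-type library nearest to the Q-KO values, it was 0.89 and passed (adjusted p = 0.0495). Leaving out any other single library gave no pass for Sox4 (limma adjusted p 0.124 to 0.318). The other SOX genes tested did not pass either. Sox2, the SOXB1 factor of pluripotency, was at 159 to 174 FPKM in Q-KO and 161 to 189 FPKM in wild-type libraries (log2 change -0.08, adjusted p = 0.753). Sox12, the SOXC relative, was at 7.28 to 9.93 FPKM in Q-KO and 5.70 to 8.75 FPKM in wild-type libraries (0.17, adjusted p = 0.658). Sox11, the third SOXC gene, was at 0.639, 0.918 and 0.578 FPKM in Q-KO libraries, against 2.61, 0.275 and 0.0349 FPKM in wild-type libraries.

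Foxd3, a forkhead factor needed to maintain the epiblast, varied less among wild-type libraries than any other of the 9 genes, by 1.49 times from lowest to highest. It was at 7.87, 6.73 and 8.93 FPKM in Q-KO replicates, against 7.79, 5.23 and 6.21 FPKM in wild-type replicates. The groups overlapped, and the log2 change was 0.26 (SE 0.18, 95% interval -0.15 to 0.68, adjusted p = 0.446). It was 0.14 without wild-type replicate 2 and 0.15 after median-of-ratios scaling. Foxd1, a relative below the filter, was at 1.40, 1.11 and 0.792 FPKM in Q-KO libraries, against 0.358, 0.542 and 0.0408 FPKM in wild-type libraries, without overlap (no filter, limma adjusted p = 0.118). Of the genes below the filter and above 0, 18.2% were likewise higher in each Q-KO library. Foxd4, at most 0.0426 FPKM in any library, did not overlap either, while Foxd2, at most 0.108 FPKM, did.

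Zic2, a zinc finger factor that binds enhancers in ES and epiblast cells, was at 13.8, 13.2 and 10.8 FPKM in Q-KO replicates, against 17.2, 17.2 and 3.66 FPKM in wild-type replicates 1, 2 and 3. Every Q-KO library thus lay below wild-type replicates 1 and 2 and above wild-type replicate 3. The log2 change was 0.22 (SE 0.48, 95% interval -0.89 to 1.34, adjusted p = 0.827). It turned to -0.43 without wild-type replicate 3 (adjusted p = 0.195), and was 1.54 against that library alone (adjusted p = 0.00640, model with the Y-linked term). Zic5, which lies beside Zic2 in the genome, was likewise lowest in wild-type replicate 3, with 3.78, 4.08 and 2.38 FPKM in Q-KO libraries, against 5.07, 5.17 and 1.70 FPKM in wild-type libraries.

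Utf1 was at 37.2, 34.5 and 35.8 FPKM in Q-KO replicates, against 30.1, 9.34 and 34.8 FPKM in wild-type replicates 1, 2 and 3. The Q-KO values were within 1.08 times of each other, while wild-type replicate 2 was at 0.288 times the mean of the other wild-type libraries. The log2 change of 0.70 (SE 0.41, 95% interval -0.25 to 1.66) did not pass (adjusted p = 0.369), and without wild-type replicate 2 it was 0.14 (adjusted p = 0.601).

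Cdh2, N-cadherin, had the largest log2 change above 0 among the 6 genes tested with all libraries, and Utf1 had it without wild-type replicate 3 (1.04 against 0.83 for Cdh2). Cdh2 was at 2.84, 3.28 and 1.40 FPKM in Q-KO replicates, against 1.12, 0.721 and 0.290 FPKM in wild-type replicates 1, 2 and 3. The groups did not overlap, with means of 2.51 ± 0.982 and 0.710 ± 0.415 FPKM (SD, n = 3 Q-KO and 3 wild-type libraries), a ratio of 3.53. The log2 change of 1.02 (SE 0.28, 95% interval 0.37 to 1.67) missed the threshold (adjusted p = 0.0905). It passed in the model with the Y-linked term (1.40, adjusted p = 0.0450).

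E-cadherin (Cdh1) stayed the dominant cadherin, at 168, 156 and 141 FPKM in Q-KO libraries and 128, 127 and 175 FPKM in wild-type libraries (log2 change 0.13, adjusted p = 0.704). Of 20 close relatives of the 9 genes, 7 could be tested, 0 passed and 1, Cdh3, had an unadjusted p under 0.05, against 4.06% and 21.5% of all genes tested. P-cadherin (Cdh3) was lower in each Q-KO library, at 3.98, 3.02 and 2.74 FPKM against 5.26, 4.99 and 14.4 FPKM in wild-type libraries, and did not pass (-0.98, adjusted p = 0.160). Fibroblasts express Cdh2, and the summed markers of fibroblast feeder cells were highest in Q-KO replicate 1, though not every marker was. The 14 markers summed to 8.80, 2.88 and 2.71 FPKM in Q-KO replicates 1, 2 and 3, against 2.27, 3.34 and 3.71 FPKM in wild-type replicates 1, 2 and 3. Col1a1 was at 1.86, 0.0931 and 0.109 FPKM in Q-KO replicates and at 0.0961 to 0.168 FPKM in wild-type libraries, and Dcn and Prrx1 were listed at 0 in Q-KO replicate 2 and in every wild-type library. Pdgfrb, a receptor of fibroblasts and pericytes, was at 0.931, 1.28 and 1.25 FPKM in Q-KO replicates, against 0.133, 0.755 and 0.440 FPKM in wild-type replicates, without overlap. Thy1, the only marker of the 14 above the filter, went the other way. It was at 1.36, 0.828 and 0.819 FPKM in Q-KO replicates, against 1.42, 1.83 and 2.75 FPKM in wild-type replicates, without overlap (log2 change -0.57, limma adjusted p = 0.196). Without Q-KO replicate 1, the library with the highest sum, the log2 change of Cdh2 was 0.93 (adjusted p = 0.210). The part of fibroblast RNA in the Cdh2 values was not tested.

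**Figure D2:**
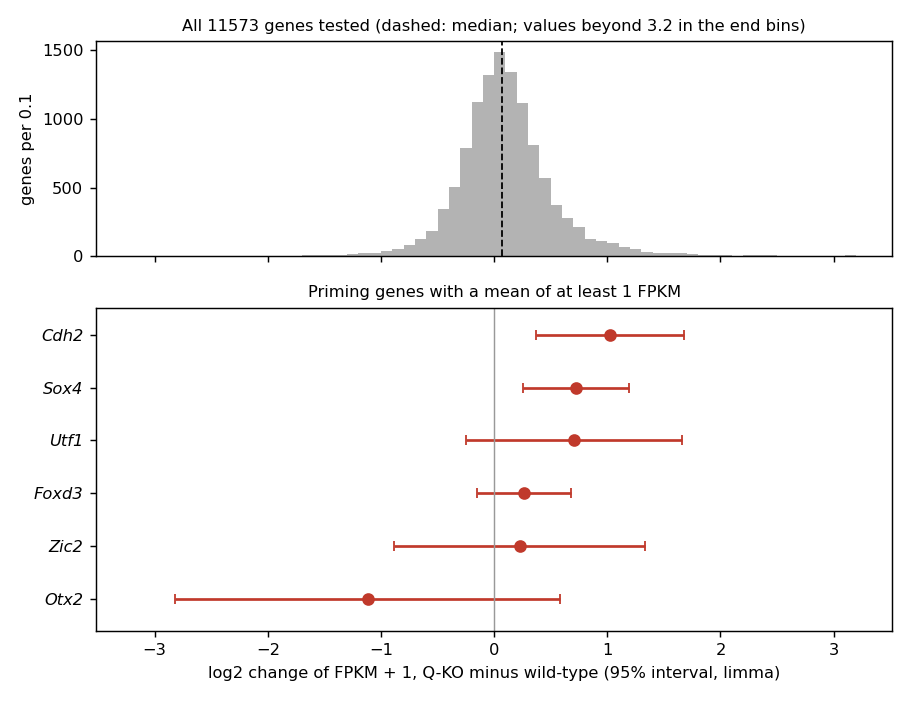
Log2 change of FPKM + 1, Q-KO minus wild-type, with the 95% limma interval for the 6 genes tested (lower panel), under the distribution of the change over all 11573 genes tested (upper panel, median 0.07). The intervals of Cdh2 and Sox4 lie above 0, and those of Utf1, Foxd3, Zic2 and Otx2 cross it.

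For 3 of these genes the wild-type libraries differed widely among themselves. On the log2(FPKM + 1) scale the wild-type SD was 1.60 for Otx2, 1.14 for Zic2 and 0.98 for Utf1, beside a median of 0.21 over all genes tested. The Q-KO SD of these genes was 0.78, 0.18 and 0.05, beside a median of 0.18. Of the 9 genes, wild-type replicate 3 had the lowest value of all 6 libraries for 6 (Fgf5, Pou3f1, Sox3, Zic2, Sox4 and Cdh2) and the highest for Otx2. It was the lowest library for 25.6% of all genes tested and the highest for 17.9%. Fgf5, Pou3f1 and Sox3 are not among the genes tested, and Sox4 and Cdh2 passed the filter through their Q-KO values. No such share was taken over genes below the filter, so the count of 6 cannot be set against these shares. Wild-type replicate 2 was the lowest for Foxd3 and Utf1.

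**Figure D3:**
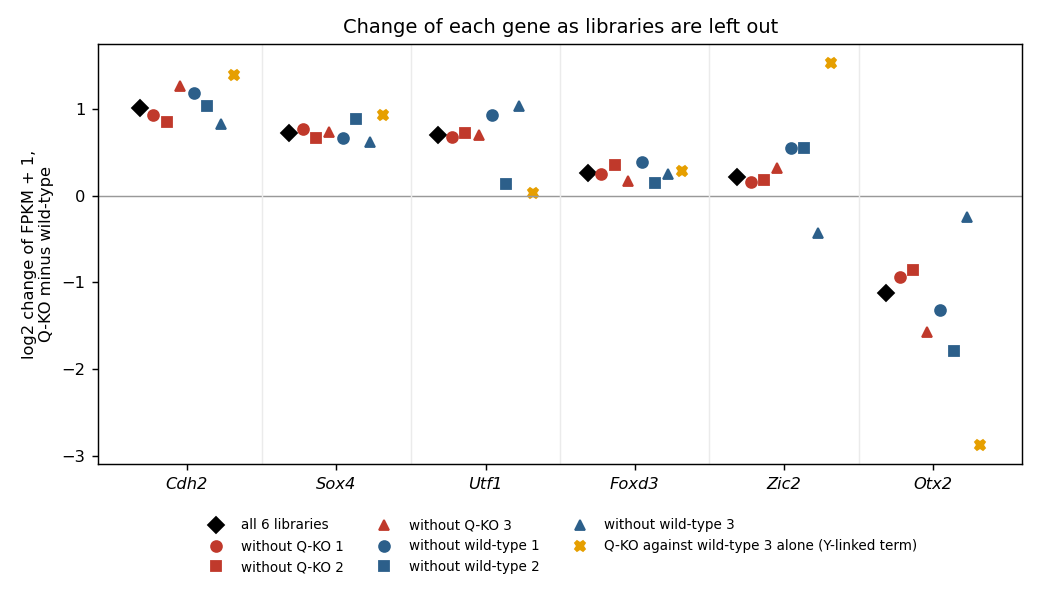
Log2 change, Q-KO minus wild-type, of each gene tested with all 6 libraries (black), without each library in turn (red for Q-KO, blue for wild-type) and with the Y-linked term (orange). Cdh2, Sox4 and Foxd3 stay above 0 in every fit shown, while Zic2 turns to -0.43 and Otx2 shrinks to -0.24 without wild-type replicate 3, and Utf1 to 0.14 without wild-type replicate 2.

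The 5 genes whose profile over the 6 libraries lay nearest to that of Otx2 were Ifitm1, Padi2, Pla1a, Dio3 and Ccl25. Otx2 was taken because its change was the largest of the 6 with all libraries and a pseudocount of 1, while that of Cdh2 was larger with a pseudocount of 0.1, without wild-type replicate 3 and without Q-KO replicate 2. The root-mean-square distances of the 5 from Otx2 were 0.31, 0.42, 0.50, 0.52 and 0.52 on the centred log2 scale. Each was highest in wild-type replicate 3, and Ifitm1 was at 86.6 to 176 FPKM in Q-KO libraries, against 184, 113 and 559 FPKM in wild-type replicates 1, 2 and 3. None of the 5 passed (adjusted p 0.171 to 0.726). With the Y-linked term, which compares Q-KO with wild-type replicate 3 alone, their log2 changes ran from -1.79 (Padi2) to -2.35 (Pla1a). The 5 genes were chosen for likeness to Otx2, which peaked in that library. Their peak there and these changes follow from that choice and are not a separate result.

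Of 18 other genes of the formative and primed epiblast, 15 were tested. In limma's test 0 of them passed in either direction, where 4.06% of all genes passed. An unadjusted p under 0.05 was found for 4, all higher in Q-KO, where 21.5% of all genes had one. Their median log2 change was -0.02, beside 0.07 over all genes tested. The most abundant was Nodal, the TGF-beta ligand of the epiblast, at 41.1, 45.9 and 38.8 FPKM in Q-KO and 40.6, 27.9 and 26.0 FPKM in wild-type libraries (0.43, adjusted p = 0.227). Lin28b, which blocks let-7 processing and was named with its values known, was at 5.52, 4.36 and 2.70 FPKM in Q-KO libraries, against 0.714, 1.25 and 1.86 FPKM in wild-type libraries. Its log2 change of 1.18 missed the threshold (adjusted p = 0.0549). Lef1, a WNT effector named likewise, was at 0.656, 0.663 and 0.375 FPKM in Q-KO libraries and at 2.48, 7.93 and 0.409 FPKM in wild-type libraries, with wild-type replicate 3 inside the Q-KO range.

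Of 13 naive pluripotency genes, 1 rose, the T-box factor gene Tbx3 (0.79, adjusted p = 0.0346), and 0 fell, where 4.06% of all genes tested passed (unadjusted p under 0.05 for Tbx3, higher, and Tcl1, lower). Zfp42 and Dppa3, named with their values known, were like Otx2 highest in wild-type replicate 3, as were 3 of the 13 in all. Nr0b1, Prdm14, Nanog and Fgf4, named likewise, were instead lowest in that library. Nr0b1 was at 32.6 to 35.3 FPKM in Q-KO libraries, against 57.0, 73.6 and 18.6 FPKM in wild-type replicates 1, 2 and 3. Zfp42 was at 74.7 to 177 FPKM in Q-KO libraries, against 76.6, 78.9 and 363 FPKM in the 3 wild-type ones. Dppa3 was at 55.9 to 114 FPKM in Q-KO libraries, against 43.0, 113 and 273 FPKM in the 3 wild-type ones. Of 8 regulators of exit from the naive state, 0 passed (unadjusted p under 0.05 for Fnip1 alone, -0.73), and their most abundant member was Mbd3, a subunit of the NuRD complex (0.24, adjusted p = 0.483). Of the 3 core factors, 0 passed and 0 had an unadjusted p under 0.05. Among 10 tested FGF receptor and ERK feedback genes, 1 rose, the ETS factor gene Etv4, at 15.5, 14.2 and 13.3 FPKM in Q-KO and 5.12, 4.63 and 3.75 FPKM in wild-type libraries (1.48, adjusted p = 0.00464). Spry2 and Fgfr1, both higher in Q-KO, also had an unadjusted p under 0.05, as did 21.5% of all genes tested. Fgfr1, the main FGF receptor of these cells, was at 23.3, 19.5 and 14.3 FPKM in Q-KO and 15.3, 9.46 and 12.6 FPKM in wild-type libraries (0.57, adjusted p = 0.192).

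Later lineage genes were mostly below the filter. Of 11 primitive streak genes 3 were tested, of which Eomes rose (1.62, adjusted p = 0.00398). An unadjusted p under 0.05 was found for Eomes and Fst, both higher in Q-KO. T, the brachyury gene, stayed at 0.272 to 0.722 FPKM in Q-KO and 0.244 to 0.481 FPKM in wild-type libraries. Of 12 neural progenitor genes 3 were tested and 0 passed (unadjusted p under 0.05 for Olig2, higher, and Nes, lower). Among all genes tested, 4.06% passed and 21.5% had an unadjusted p under 0.05. Tubb3, their most abundant member, was at 27.1 to 47.1 FPKM in Q-KO and 18.1 to 38.1 FPKM in wild-type libraries (adjusted p = 0.488). Sox1, the earliest neural SOXB1 gene, was at 0.437 to 0.613 FPKM in Q-KO and 0.451 to 0.779 FPKM in wild-type libraries.

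**Figure D4:**
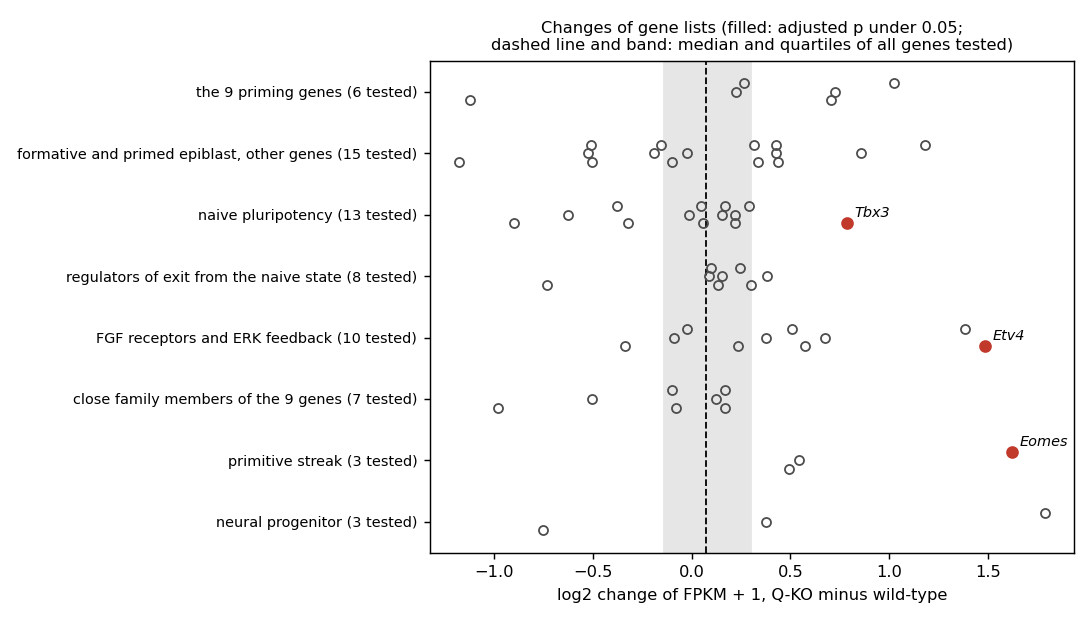
Log2 change, Q-KO minus wild-type, of each tested gene of the 9 priming genes and of 7 other lists, with genes past an adjusted p of 0.05 filled and named. The dashed line is the median over all genes tested (0.07) and the band their quartiles (-0.14 to 0.30), and the genes that passed are Tbx3, Etv4 and Eomes.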

How the data were processed

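RNA-seq of 6 mouse ES cell libraries was analysed, 3 Q-KO and 3 wild-type, grouped by their titles. The authors deposited FPKM values, 1 for each gene symbol in each library. The submitters' processing notes name CASAVA, bcl2fastq 2.16, STAR 2.5, Cufflinks and build mm9 without roles; annotation, strand setting and depth were not stated. A Cufflinks FPKM is an estimate, so a listed 0 need not be an absence. A stray header row was dropped.

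The 11573 genes averaging at least 1 FPKM were analysed as log2(FPKM + 1), a scale that understates changes of low genes, with limma 3.58.1 in R 4.3.3 (intensity trend, two-sided, Benjamini-Hochberg over all genes, threshold 0.05), checked on simulated data. A count test does not suit FPKM, and counting intervals could not be computed.

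The 9 genes, the lists and the rules were chosen with earlier results of these data known. Beside the 9 genes, the text names list members that passed or, with none, the most abundant one, relatives of the 9 genes, the 5 nearest profiles to the tested gene with the largest change (without predicted, microRNA and snoRNA genes), and G1 cyclins. Any other gene was named with its values known. Alternatives were another pseudocount, filter, scaling or fit, a replicate block, a Y-linked term and leaving out each library.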

Additional observations from a re-analysis of the deposited data

How the results depend on the processing

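The count of priming genes called was 0 with both scalings tried (median of ratios and quantile), with and without the filter, with a pseudocount of 0.1, without the intensity trend, in a robust fit, and when genes had to average 5 FPKM (which leaves Foxd3, Zic2 and Utf1). With the Y-linked term it was 3, with log2 changes of -2.88 for Otx2, 1.54 for Zic2 and 1.40 for Cdh2, and that fit called 894 genes in all, against 470. The filter at 5 FPKM left 266 calls, from fewer genes tested. Leaving out 1 library gave 0 to 1 priming genes called and 28 to 566 genes in all. It gave log2 changes of -0.43 to 0.55 for Zic2 and 0.62 to 0.89 for Sox4, the low end for Zic2 and Sox4 being without wild-type replicate 3; the cause was not tested. Outside the single-library fits, the 6 genes tested kept their direction in every alternative. Of all calls 74.9% were higher in Q-KO, against 55.7% after median-of-ratios scaling, which moved the median log2 change of all genes to -0.04 from 0.07, and 54.0% after quantile normalization. Sox4 was then at 0.65 and 0.50, and Cdh2 at 0.95 and 0.78. With a pseudocount of 0.1 the log2 changes were 1.20 for Sox4 (0.73 with 1), 1.75 for Cdh2 (1.02) and -1.45 for Otx2 (-1.12), and, with no filter as well, 2.01 for Sox3 (0.84) and 0.34 for Fgf5 (0.04). Zic2 was at 0.11 and 0.14 after median-of-ratios scaling and quantile normalization, against 0.22. Foxd3 was at 0.15 and 0.16 with these scalings, and at 0.14 without wild-type replicate 2, against 0.26.

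The labels do not say what the replicate numbers share, and libraries with the same number did not deviate together (r across genes -0.03, 0.01 and 0.02 for numbers 1, 2 and 3). With the replicate block, 333 genes and 0 priming genes were called, and Cdh2 had an adjusted p of 0.0558. Fgf5, Pou3f1 and Sox3, below 1 FPKM on average, are the genes most limited by depth, and the fragments behind them are not given. Leaving out 1 library moved the untested log2 difference of Pou3f1 between -0.38 and 0.01.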

Other observations

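Several early lineage genes that averaged under 1 FPKM were also higher in each Q-KO library than in any wild-type library, and were named with their values known. The same held for 18.2% of all genes below the filter and above 0. Wnt8a, a WNT ligand of the primed epiblast and streak, was at 0.213, 0.106 and 0.113 FPKM in Q-KO libraries, against 0.0293, 0 and 0.00876 FPKM in wild-type libraries (no filter, limma adjusted p = 0.0862). Mixl1, a homeobox gene of the primitive streak, was at 0.973, 0.984 and 0.721 FPKM in Q-KO libraries, against 0.363, 0.400 and 0.116 FPKM in wild-type libraries (adjusted p = 0.0697). Pax6, a regulator of eye and forebrain, was at 0.247, 0.184 and 0.176 FPKM in Q-KO libraries, against 0.0272, 0.0492 and 0.0585 FPKM in wild-type libraries. Pax6 passed in the fit with no filter (log2 change 0.20, limma adjusted p = 0.0336), which called 519 of 19581 genes. Map2, a microtubule protein of neurons, went the other way, at 0.460, 0.240 and 0.190 FPKM in Q-KO libraries and 0.736, 0.955 and 0.881 FPKM in wild-type libraries (adjusted p = 0.0570).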
